A study of Mus musculus with 1073 samples.

Results

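The Flk1-GFP+ extraembryonic mesoderm of the E7.75 mouse yolk sac was described from 140 single-cell transcriptomes, which passed quality control together with 786 cells of 12 other sorted populations. Its members were every column of the filtered count table labelled as an E7.75 Flk1 cell. They were thus chosen by label, after the authors' quality filter and with earlier results of these data known. Flk1, encoded by Kdr, is a receptor for vascular endothelial growth factor, and these cells carried a GFP reporter in 1 copy of the gene (Flk1-GFP/+). Viable GFP-positive cells were sorted from dissected, trypsin-treated yolk sacs that had received no treatment, loaded on Fluidigm C1 chips and sequenced as full-length cDNA in paired-end reads. The E7.25 population, with captures of 73 and 74 cells, was Flk1-GFP/+ and sorted in the same manner. The 11 remaining populations came from wild-type C57BL/6 yolk sacs of E8.25 to E10.5, also untreated but dissociated with collagenase and dispase, and comprised endothelium (Endo), primitive erythrocytes (EryP), megakaryocytes (Mk), macrophages (Mac) and haematopoietic progenitor cells (HPC, labelled as erythro-myeloid progenitors). Of these, E8.5 Endo with 79 cells and E8.5 EryP with 66 cells served as the main references for the vascular and the blood fate.

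Extraembryonic mesoderm leaves the primitive streak during gastrulation and spreads between the visceral endoderm and the extraembryonic ectoderm, where it forms the mesodermal layer of the yolk sac, the allantois and the amnion. In the yolk sac it is the source of the first blood and vessels: nucleated primitive red cells emerge in the blood islands, endothelial cells form the vascular plexus around them, and mesenchymal and mesothelial cells line the wall. Flk1 marks the mesoderm from which these blood and endothelial cells arise.

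The E7.75 cells came from 2 captures, sequenced in lanes 7 and 8 of 1 flow cell. Lane 7 gave 53 filtered cells of 59 captured and lane 8 gave 87 of 91. Total counts per cell ran from 533103 to 4523772 with a median of 2759530 in lane 7, and from 537331 to 3380148 with a median of 1620920 in lane 8, while the median number of genes found was 8611 and 8875. The median mitochondrial share of counts was 1.93% and 3.05%. The pooled embryos behind each cell were not named, so each population counted as 1 sample. No test between populations was therefore possible, no p-value is given, and the spread between the captures was the one repeat measurement available. E7.75 was sequenced on another flow cell than E7.25 and E8.5, so that a difference between these stages and a difference between sequencing runs cannot be told apart.

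The captures differed in sex transcripts. In lane 7, Xist, the non-coding RNA of the inactive X chromosome, was at 0 counts in all 53 cells (a count of 0 allows about 5.66%). Such limits, here and below, are approximate, as 3 divided by the number of cells. The exact 95% interval for 0 of 53 cells reached 6.72%. In the same capture, 52 cells held at least 5 counts of Y-linked transcripts (Ddx3y, Eif2s3y, Kdm5d and Uty together). In lane 8, 59 cells held Xist alone, 10 held Y-linked transcripts alone and 17 held both (19.5%; exact 95% binomial interval 11.8 to 29.4%). The lane 7 cells thus carried the transcripts of male embryos and the lane 8 cells mostly those of female embryos. Cells with both kinds of transcript also made up 23.3% and 21.6% of the E7.25 captures. No doublet call was made, and the part that mixed capture sites play in the values was not tested. Of the index pairs that tag cells in the library, 48 were used in both E7.75 captures. All intervals on shares of cells here cover counting error only.

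Levels are given in CPM, the deposited counts scaled by the authors with pooled size factors, and a gene was found in a cell when it had at least 1 count. The 6 genes that mark these cells were Mdk (chr2:91929805-91932297, minus strand), which encodes the growth factor midkine, Prtg (chr9:72806874-72917291, plus), which encodes protogenin, a neogenin-related surface protein, Car4 (chr11:84957786-84966044, plus), a membrane-anchored carbonic anhydrase, Krt8 (chr15:101996698-102004482, minus), an epithelial keratin, Unc5c (chr3:141465216-141834924, plus), a netrin receptor, and Foxf1 (chr8:121084386-121088144, plus), a forkhead factor required in extraembryonic and lateral plate mesoderm. Coordinates are those of GRCm38.

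Mdk was found in 140 of 140 cells. Its lowest, median and highest level was 61.5, 210 and 477 CPM in lane 7 and 12.5, 261 and 739 CPM in lane 8. Prtg was also found in every cell, with 173, 1539 and 4126 CPM in lane 7 and 59.1, 1367 and 3790 CPM in lane 8. For Mdk the lane 7 range lay within the wider range of lane 8, and for Prtg the ranges of the captures overlapped almost fully. Car4 was found in every cell too, but over a much wider range, from 2.30 through a median of 850 to 6004 CPM in lane 7 and from 0.867 through 591 to 2810 CPM in lane 8. Krt8 was found in 96.4% of cells (91.9 to 98.8%), with a median of 293 CPM in lane 7 and 252 CPM in lane 8 and a highest cell of 1206 and 1456 CPM. Part of the Krt8 reads could belong to its near-identical pseudogene copies. Unc5c was found in 98.6% of cells (94.9 to 99.8%), with medians of 135.3 and 129.4 CPM, and Foxf1 in 89.3% (82.9 to 93.9%), with medians of 71.2 and 66.8 CPM. Each of these 4 genes therefore went from near absence to high levels between cells of the same capture.

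In these comparisons, a gene was called different when its mean differed at least 4-fold, on the log2(mean CPM + 1) scale, from both captures of E7.75 to every capture compared, and it was eligible when its mean was at least 50 CPM and at least 50% of the cells held it in the higher group. Against E8.5 Endo, 5 of the 6 markers were called higher, where 2.74% of 3829 eligible genes were. Mean Car4 was 977 and 743 CPM in the captures and 8.13 CPM in E8.5 Endo, and mean Krt8 was 339 and 283 CPM against 38.8 CPM. Foxf1 was the exception, at 108.8 and 100.5 CPM against 28.0 CPM. Against E8.5 EryP, 5 of 6 were called higher, beside 8.36% of eligible genes, and Mdk, at 90.5 CPM in EryP, was not. Foxf1 and Car4 had no count in any E8.5 EryP cell. Against E7.25, 0 of 6 were called, beside 0.157% of eligible genes. The log2 differences of the pooled cells from E7.25 were 0.24 for Car4, 0.34 for Prtg, 0.47 for Mdk, 0.62 for Unc5c, 0.74 for Foxf1 and 1.07 for Krt8, all with the E7.75 mean higher. From means of log2(CPM + 1) in place of logs of means, Car4 and Foxf1 were not higher than at E7.25, at -0.13 and -0.000987. The markers were given with results of these data known, and nothing is read from their counts against the background.

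**Figure D1:**
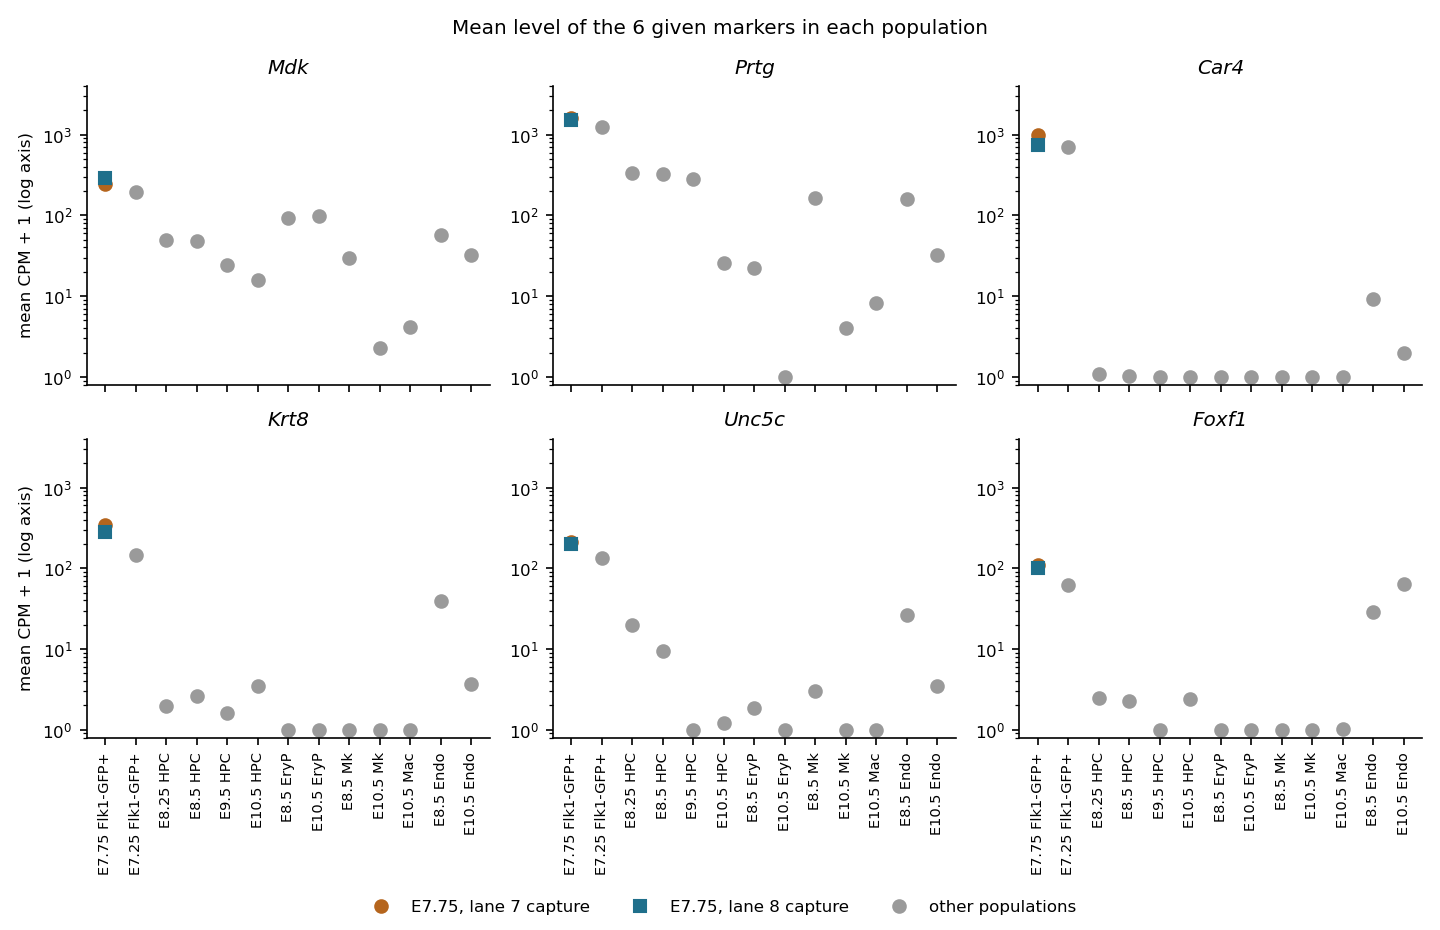
Mean level of the 6 marker genes in each of the 13 populations, as mean CPM + 1 on a log axis, with 1 point per population and 1 point for each capture of E7.75. The captures of E7.75 lie together for each gene, at 977 and 743 CPM for Car4, with E7.25 at 705 CPM as the next population and E8.5 Endo at 8.13 CPM.

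Across the whole transcriptome few genes set the E7.75 cells apart from every other population. Of 3829 eligible genes, 2 were called higher than each of the 12 others (0.0522%), and of 1363 eligible genes 0 were called lower than each (0%). The 2 genes were Lrp2 (chr2:69424340-69586065, minus), which encodes the endocytic receptor megalin, and Tmem108 (chr9:103482947-103761837, minus), which encodes a transmembrane protein. Lrp2 averaged 92.4 CPM in lane 7 and 65.6 CPM in lane 8, with medians of 22.2 and 1.31 CPM and highest cells of 1367 and 452 CPM, and its highest other population was E10.5 Endo at 8.51 CPM. It was found in 72.1% of cells (63.9 to 79.4%). Tmem108 averaged 52.4 and 62.4 CPM and was found in 77.1% of cells (69.3 to 83.8%), against 9.62 CPM at E7.25. The means of Lrp2 were thus carried by a minority of cells with high levels. For Tmem108, the level from means of log2(CPM + 1), which cannot exceed the mean, was 10.1 CPM at E7.75 and 2.10 CPM at E7.25. Judged from lane 7 alone, without lane 8, 9 genes were higher than in every other population, 3 of them with at least 50% of their level in 1 cell, and Xist was lower, whereas lane 8 alone gave Lrp2 and Tmem108. Without the 20 cells of the cluster with fewest genes, described further on, Lrp2 kept the call and Tmem108 did not. Among the 10 further eligible genes that were at least 2-fold higher than in all 12 others, Col1a1 (a chain of type I collagen) exceeded the next population by 1.48 on the log2 scale, Tagln (transgelin, an actin-binding protein of smooth muscle) by 1.44, and Slc2a1 (the glucose transporter GLUT1) by 1.11. Krt8 and Krt18, at 0.97 and 0.87, lay just below that 2-fold margin.

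Leaving out E7.25, the nearest population in stage and sort, 45 genes (1.18%) were at least 4-fold higher in both E7.75 captures than in each of the other 11. Spin2c had the largest margin, 6.76 on the log2 scale, with 515 and 635 CPM in lanes 7 and 8 and 646 CPM at E7.25. Car4 followed at 6.35. The leading genes further included Cfc1, which encodes the Nodal co-receptor Cryptic, Fgf15 and Fgf3, which encode fibroblast growth factors, Cdh11, a mesenchymal cadherin, Vcan, which encodes the matrix proteoglycan versican, Apela, which encodes a peptide ligand of the apelin receptor, and the transcription factor genes Lef1, Hand1 and Prdm6. Fgf3 averaged 148.02 and 110.9 CPM, had no count in E8.5 Endo and averaged 85.4 CPM at E7.25. Spin2c, Car4 and Fgf3 were thus expressed by the mesoderm of both stages.

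Between E7.25 and E7.75, 6 of 3829 eligible genes were called higher at E7.75 (0.157%) and 6 of 3813 were called lower (0.157%). Hbb-bh1, an embryonic beta-like globin gene, averaged 804 and 312 CPM in lanes 7 and 8 and 28.7 and 1.54 CPM in the 2 captures of E7.25. It was found in 80.0% of E7.75 cells and 9.52% of E7.25 cells. The E7.75 share includes many cells with traces under 10 CPM, described with the erythroid genes. Gfi1b, a repressor needed for erythroid and megakaryocytic development, averaged 92.9 and 57.4 CPM against 13.3 CPM in each E7.25 capture. Acta2, which encodes smooth muscle actin, averaged 316 and 151.97 CPM against 16.4 and 28.7 CPM, and Abcg1, a cholesterol exporter, 280 and 237 CPM against 17.0 and 27.9 CPM. Lrp2 and Tmem108 completed the 6. These 2 lost the call without the 20 cells of the cluster with fewest genes, Gfi1b, Lrp2 and Tmem108 lost it with a pseudocount of 10 CPM, and Gfi1b lost it in lane 8 alone. Abcg1, Acta2 and Hbb-bh1 kept it in these settings. From means of log2(CPM + 1), none of the 12 genes called in either direction was eligible, since all were under 50 CPM on that scale. Without that minimum, the smallest log2 difference between captures was 2.75 for Acta2, 2.70 for Hbb-bh1 and 2.34 for Lrp2. It was under 4-fold for Abcg1 (1.98), Tmem108 (1.69) and Gfi1b (1.67). Of the lower genes, named below, only Zfp808 was under 4-fold there (-1.30). In lane 7, 5 of the 6 means of the higher genes and 4 of the 6 of the lower genes lay farther from E7.25 than in lane 8. The lane 7 mean was the larger for 58.7% of the 3832 genes with a mean of at least 50 CPM. Judged from lane 7 alone, without lane 8, 27 genes were higher and 26 lower than at E7.25. Of these 27, 8 held at least 50% of their lane 7 level in 1 cell, and Xist, which follows the sex of the cells, was among the 26. From lane 8 alone, 6 were higher and 10 lower.

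The 6 genes called lower included Eomes, a T-box gene of the primitive streak that starts mesoderm formation, which averaged 1.15 and 2.58 CPM at E7.75 and 146.7 and 65.1 CPM at E7.25. It was found in 2 and 12 cells of lanes 7 and 8, 10.0% of all, against 78.2% at E7.25. The other 5 are named after their values were seen. Tdgf1, which encodes the Nodal co-receptor Cripto, averaged 0.0104 and 1.59 CPM against 263 and 214 CPM, the largest difference of the 6 at -6.91 on the log2 scale. Tdgf1 was found in 3.57% of E7.75 cells. The remaining genes were Sgk3, a kinase (-2.89), Vrtn (-2.69), Upp1, a uridine phosphorylase (-2.61), and Zfp808, a zinc finger gene (-2.56). Few E7.75 cells thus held Eomes or Tdgf1, which most E7.25 cells carried.

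The streak and nascent mesoderm list showed the same contrast gene by gene. On average its 8 measured genes were found in 18.8% of E7.75 cells and in 62.2% of E7.25 cells. T (brachyury) averaged 3.63 and 12.9 CPM against 66.6 CPM, and was found in 27.9% of cells. Mesp1, a factor of the earliest cardiovascular mesoderm, averaged 0.022 and 1.35 CPM against 15.0 CPM. Lefty2, a Nodal antagonist, had no count in any of the 140 cells, where a count of 0 allows at most 2.14%, and was found in 19.7% of E7.25 cells. Mixl1, a homeobox gene of the streak, remained in some cells, 7 of lane 7 and 38 of lane 8, with means of 9.89 and 54.2 CPM against 270 CPM at E7.25. The average share for the list was 11.6% in lane 7 and 23.3% in lane 8. Of the 4 genes of this list eligible for the call, 1 was called lower than E7.25, beside 0.157% of all 3813 eligible genes. It was Eomes, already named among the 6 lower genes.

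Genes of extraembryonic mesoderm were mostly found at shares near those of E7.25. The 12-gene list averaged 73.5% of E7.75 cells, 69.3% in lane 7 and 76.0% in lane 8, against 78.9% at E7.25, 35.0% in E8.5 Endo and 1.01% in E8.5 EryP. Hand1, a bHLH factor needed for yolk sac vessel development, averaged 203 and 153.8 CPM against 158.4 CPM at E7.25, and Bmp4, the ligand that patterns extraembryonic mesoderm, 90.9 and 125.4 CPM against 96.8 CPM. For both genes, the E7.25 mean lay between the E7.75 captures. Pmp22, which encodes a tetraspan membrane protein, was found in all cells with 1220 and 802 CPM against 606 CPM. Of the 7 eligible genes of the list, 4 were called higher than E8.5 Endo, beside 2.74% of all eligible genes, and 7 higher than E8.5 EryP, beside 8.36%.

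Most mesenchymal and matrix genes had a larger mean at E7.75 than at E7.25. Of the eligible genes, 1 of 3 mesenchymal ones, Acta2, and 0 of 11 matrix ones were called higher, beside 0.157% of all eligible genes. Of the 9 mesenchymal genes that the study chose on these data, 7 had the higher mean at E7.75, with a median log2 difference of 1.53. Over all 15967 genes, 8395 had the higher mean at E7.75 and the median was 0.03. Tagln averaged 154.9 and 98.5 CPM against 35.8 CPM. Col1a2 averaged 34.6 and 44.3 CPM against 13.4 CPM. Col1a1 averaged 90.1 and 31.2 CPM against 10.54 CPM, with 42.7% of its lane 7 level in 1 cell. Msx1 and Msx2, homeobox targets of BMP signalling, were the exceptions, with Msx1 at 26.8 and 60.9 CPM against 53.6 CPM. Of 20 extracellular matrix genes, 17 had a larger mean than at E7.25, with a median log2 difference of 1.10. Lamc1, a laminin chain, averaged 162 and 86.7 CPM against 31.6 CPM, and Col18a1 53.0 and 64.1 CPM against 14.5 CPM. Fn1, which encodes fibronectin, went the other way at 486 and 532 CPM against 679 CPM. Compared with E8.5 Endo, 7 of 11 eligible matrix genes were called lower in the E7.75 cells, beside 8.92% of 4204 eligible genes, and 3 of 11 were called higher, beside 2.74%.

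Of 10 measured cadherin genes and factors of the epithelial-mesenchymal transition, 4 had a larger mean than at E7.25, beside 8395 of all 15967 genes. The median log2 difference of the 10 was -0.30, and their average share of cells was 55.3% against 59.1%. Snai2, a repressor of epithelial genes and 1 of the 4, was found in 67.1% of E7.75 cells and 27.2% of E7.25 cells, with 94.1 and 52.2 CPM against 12.2 CPM. Krt18, the partner of Krt8, averaged 1036 and 670 CPM against 366 CPM, and Vim, the mesenchymal intermediate filament, 322 and 295 CPM against 180 CPM. The means of both keratin and vimentin transcripts were thus larger than at E7.25, by less than 4-fold. Krt7 had no count in the E7.75 cells.

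**Figure D2:**
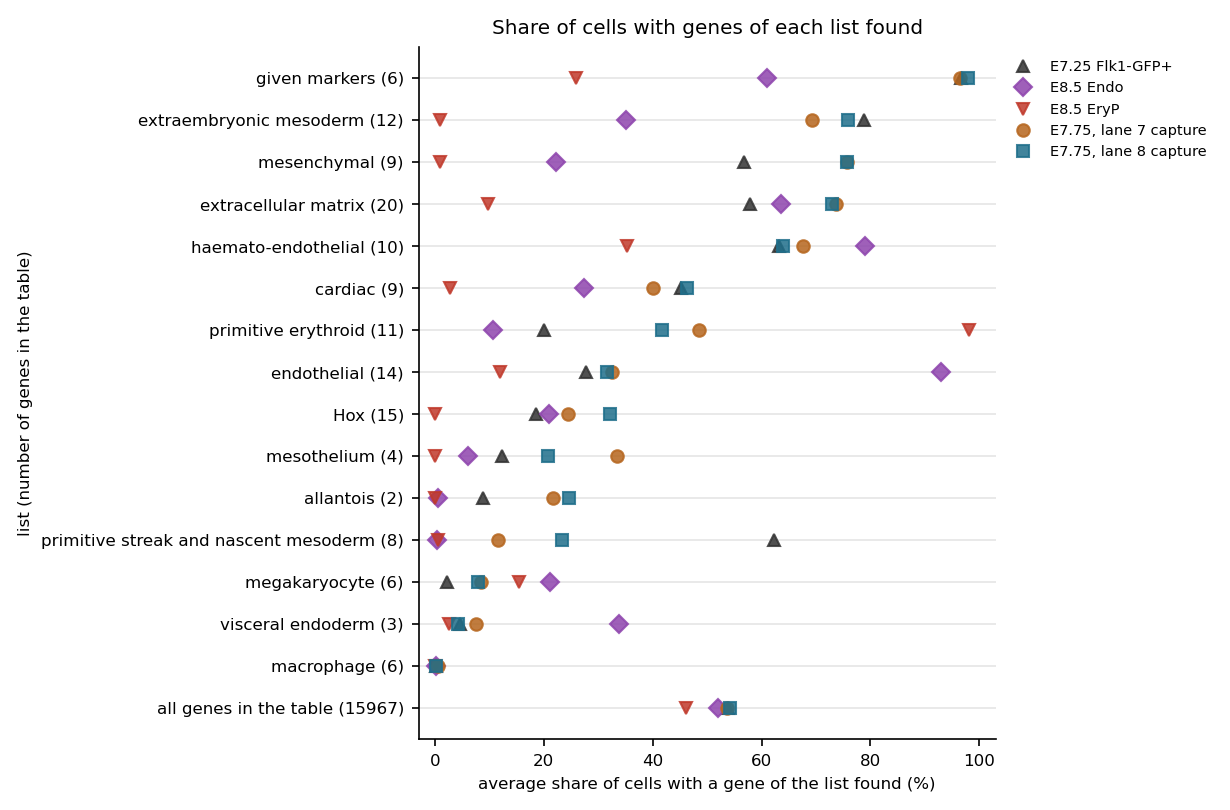
Average share of cells (%) in which the genes of each list were found, for E7.75 lanes 7 and 8, E7.25, E8.5 Endo and E8.5 EryP. The streak list lies at 11.6% and 23.3% in the E7.75 captures and 62.2% at E7.25, and the mesenchymal list at 75.7% and 75.6% against 56.8%.

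Haemato-endothelial genes were found in 65.4% of E7.75 cells on average, and genes of the endothelial list in 31.9%, against 79.0% and 93.0% in E8.5 Endo. Kdr itself, whose reporter defined the sort, was found in 72.1% of E7.75 cells and 95.2% of E7.25 cells. It averaged 40.2 and 33.8 CPM, with medians of 4.36 and 5.90 CPM and highest cells of 614 and 490 CPM, against 110 CPM at E7.25 and 739 CPM in E8.5 Endo. Whether the tagged allele yields Kdr transcript was not examined here, and GFP protein can outlast the RNA. The blood and endothelial factor genes Tal1 (38.5 and 46.9 CPM against 42.6 CPM at E7.25), Lmo2 (45.9 and 50.8 against 36.5 CPM) and Fli1 (133.6 and 127.3 against 137.6 CPM) were close to E7.25. Kit, the receptor for stem cell factor, was at 49.1 and 54.0 CPM against 14.5 CPM. Of the later endothelial genes, Cdh5 (VE-cadherin) was found in 32.9% of cells and averaged 6.60 and 9.51 CPM against 528 CPM in E8.5 Endo, Emcn was found in 2.86% of cells and Cldn5 in 2.14%. Of 10 eligible genes of the endothelial list, 9 were called lower than in E8.5 Endo, beside 8.92% of all eligible genes. Tek, the angiopoietin receptor, was at 106.9 and 68.7 CPM against 717 CPM, and Aplnr, the apelin receptor, at 140 and 94.0 CPM against 255 CPM.

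Several primitive erythroid genes were at trace levels in most E7.75 cells and at high levels in some. All 11 erythroid genes had a higher mean than at E7.25, beside 8395 of all 15967 genes, with a median log2 difference of 2.33. Of the 10 eligible, 8 were called lower than in E8.5 EryP, beside 3.65% of 3920 eligible genes. Gata1, the master regulator of erythroid genes, averaged 190 and 96.4 CPM with medians of 0.57 and 0.846 CPM and highest cells of 2035 and 824 CPM. It averaged 33.1 CPM at E7.25 and 501 CPM in E8.5 EryP. Klf1, the erythroid Kruppel-like factor, averaged 13.2 and 13.4 CPM against 0.308 CPM at E7.25. Hbb-bh1 had medians of 2.94 and 0.846 CPM beside highest cells of 13417 and 5571 CPM, and E8.5 EryP averaged 56134 CPM. It was found in 52 of 53 lane 7 cells and 60 of 87 lane 8 cells (98.1%, 89.9 to 100% against 69.0%, 58.1 to 78.5%). This share counts traces. In cluster 4, described further on, 23 of 23 lane 7 cells held it and 0 reached 10 CPM, while 3 of 43 lane 8 cells did. In clusters 1, 2 and 3, 12 of 14, 1 of 6 and 1 of 10 lane 7 cells reached 10 CPM. In lane 8, 13 of 15, 13 of 19 and 2 of 10 did, so the larger share in lane 7 was not seen at 10 CPM. Levels near 1 CPM in most cells thus stood beside very high levels in some. Hba-x, the embryonic alpha-like globin gene, was found in 11 and 3 cells. The 4 adult globin genes, whose copies share reads, were found in 10.0% of cells on average and all 4 were called lower than in E8.5 EryP.

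Alas2, which encodes the first enzyme of erythroid haem synthesis, averaged 49.0 and 13.6 CPM against 6.45 CPM at E7.25 and 1394 CPM in E8.5 EryP, and Epor, the erythropoietin receptor, 16.5 and 19.5 CPM against 2.86 and 110 CPM. GATA1 binds AGATAA and KLF1 binds CACCC. The RefSeq promoters of these 2 genes, from 250 bases before to 50 bases after the start, are shown because they were the 2 of 9 listed erythroid genes matched in the promoter table that hold AGATAA on either strand. Capitals mark AGATAA or its complement TTATCT, and CACCC or its complement GGGTG. Alas2 lies at chrX:150547167-150547466 on the plus strand and Epor at chr9:21963527-21963826 on the minus strand of GRCm38.p6, each written along its own strand.
Alas2: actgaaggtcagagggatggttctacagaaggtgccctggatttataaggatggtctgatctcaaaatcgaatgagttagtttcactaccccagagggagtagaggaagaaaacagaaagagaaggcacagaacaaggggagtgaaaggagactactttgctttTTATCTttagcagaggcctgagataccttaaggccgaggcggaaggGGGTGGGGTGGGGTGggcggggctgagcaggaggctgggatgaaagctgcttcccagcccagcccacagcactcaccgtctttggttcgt
Epor: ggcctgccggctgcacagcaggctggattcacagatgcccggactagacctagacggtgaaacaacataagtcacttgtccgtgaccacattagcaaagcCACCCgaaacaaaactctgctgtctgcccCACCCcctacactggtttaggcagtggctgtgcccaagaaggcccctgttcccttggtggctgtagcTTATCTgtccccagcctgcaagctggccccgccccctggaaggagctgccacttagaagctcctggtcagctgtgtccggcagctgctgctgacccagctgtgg
AGATAA occurred in 11.2% of 32851 promoters of this length and in 22.2% of the 9 erythroid ones, and CACCC in 57.5% and in 9 of 9. Of the 4 marker genes with a matched promoter, Krt8 held AGATAA. These matches are descriptions of the letters and say nothing of binding.

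Markers of other tissues ranged from rare to frequent. Cardiac genes, several of which yolk sac mesoderm also expresses, were found in 44.0% of cells on average (45.1% at E7.25), epiblast and ectoderm genes in 33.9% (55.6%), mesothelium genes in 25.5% (12.2%; 33.5% in lane 7 and 20.7% in lane 8) and extraembryonic ectoderm genes in 15.7% (12.9%). The 3 visceral endoderm genes of the filtered table averaged 5.48% of cells. Macrophage genes averaged 0.357% of cells, with each of the 6 under 5%, and megakaryocyte genes 8.10%. In the unfiltered table, the visceral endoderm genes Afp, Apob, Amn, Cubn, Rbp4, Apom, Apoc2, Spink1 and Foxa2 were each found in 0 to 2 of the 140 cells. Cdh1, the epithelial cadherin, and Sox2 were found in 1 cell each. Of the allantois list, Tbx4, a T-box gene of the allantois, was found in 25.7% of cells against 6.12%, with 20.1 and 10.1 CPM against 0.3 CPM. Hoxa11 and Hoxa13 were found in 6.43% and 5.71% of cells against 4.08% and 3.40%, and Hoxd13 in none against 2.72%. Cdx2, a caudal homeobox gene listed here with the extraembryonic ectoderm, was found in 25.0% against 6.12%. Of 15 Hox genes, 14 had a higher mean than at E7.25, beside 8395 of all 15967 genes. On average the Hox genes were found in 29.2% of cells against 18.6%. Hoxc8 was found in 27.1% of E7.75 cells and 2.04% of E7.25 cells. The part that allantois cells in the dissected tissue play in these values was not tested.

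Of the eligible genes, 0 of 4 BMP and 0 of 3 WNT ones were called higher than at E7.25, and 0 of 5 and 0 of 4 were called lower. Of all eligible genes, 0.157% were called in each direction, so these counts of 0 say little of the lists. The BMP list was found in 69.1% of E7.75 cells on average and in 76.0% at E7.25. Bmper, a secreted modulator of BMP ligands, averaged 0.0549 and 0.781 CPM against 41.7 CPM and was found in 5.71% of cells against 66.0%. In the WNT list, 4 of 13 genes had a higher mean than at E7.25, beside 8395 of all 15967 genes. Dkk1, a WNT antagonist, was found in 9.29% of cells against 40.1%, and Lgr5, an R-spondin receptor, averaged 5.87 and 18.2 CPM against 49.5 CPM. Wnt5a was at 100.5 and 107.4 CPM against 76.1 CPM. Hedgehog transcripts Shh, Ihh and Dhh had no count in the 140 cells, while Ptch1, the Hedgehog receptor and target, averaged 350 and 282 CPM against 183 CPM. Vegfa, the ligand of Flk1, was found in 77.1% of cells against 50.3%.

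Most glycolytic and imprinted genes had a larger mean than at E7.25. Of the eligible genes, 0 of 13 glycolytic and 0 of 11 imprinted ones were called higher, beside 0.157% of all eligible genes. Of 16 glycolysis genes, 15 had a higher mean, beside 8395 of all 15967 genes, with a median log2 difference of 0.52. Slc2a1 was found in all cells with 1303 and 955 CPM against 347 CPM, a log2 difference of 1.65, and Hk2, the hexokinase that traps glucose, at 1060 and 853 CPM against 528 CPM. All 16 glycolysis genes had a lower mean in lane 8 than in lane 7, with a median log2 difference of -0.40. The lane 7 mean was also the larger for 58.7% of the 3832 genes with a mean of at least 50 CPM. Of 16 imprinted genes, 15 had a larger mean than at E7.25, beside the same 8395 of all 15967 genes, with a median log2 difference of 0.83. Igf2r, which clears the growth factor IGF2, averaged 251 and 255 CPM against 65.3 CPM, Igf2 463 and 370 CPM against 123.3 CPM, and H19 1281 and 941 CPM against 371 CPM. Peg3 was the exception at 861 and 1107 CPM against 1862 CPM. Cell cycle genes of S phase and mitosis were found in 97.04% and 98.5% of cells on average.

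The genes with the widest spread within the population included Hbb-bh1, Gata1 and Acta2. Among 1696 genes with a mean of at least 20 CPM that were found in 20% to 80% of cells, the median SD of log2(CPM + 1) was 2.63, and the largest were 4.10 for Abcg1, 4.00 for Hbb-bh1, 3.87 for Acta2 and 3.72 for Gata1. The first principal component, with 9.43% of the variance, ran from Spin2c, Krt18, Krt8, Hand1, Pmp22 and Foxf1 at its low end to Abcg1, Gata1, Hbb-bh1, Gfi1b and Lmo2 at its high end. The second, with 5.47%, followed the number of genes found per cell (r = 0.85 over 140 cells that share 2 libraries, a description). The third, with 1.88%, had Acta2, Tagln, Snai2 and Tek at its high end and Mixl1, Cdx4, Jag1 and Isl1 at its low end, with a median of 7.90 in lane 7 and -0.01 in lane 8.

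**Figure D3:**
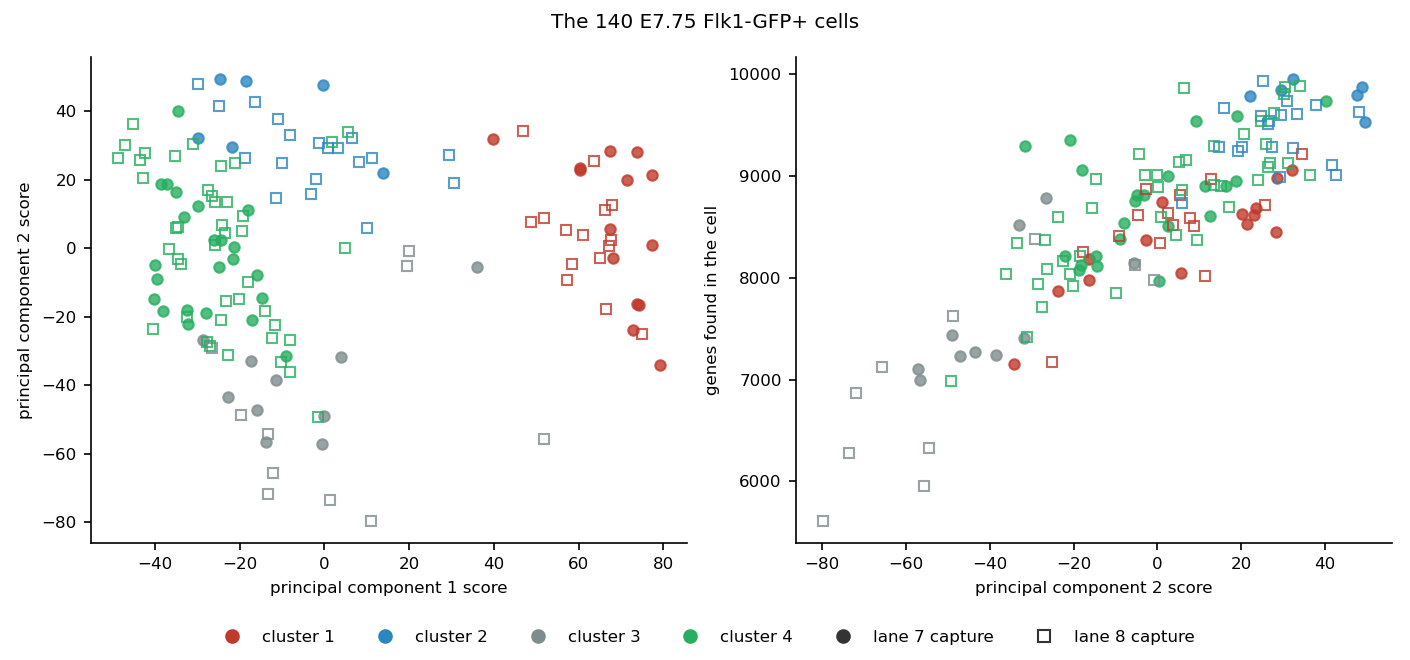
Left, each of the 140 E7.75 cells by its scores on principal components 1 and 2; right, the score on component 2 against the number of genes found in the cell, with colour for the cluster and filled circles or open squares for lanes 7 and 8. Cluster 1 lies at 39.8 to 79.2 on the first component and cluster 4 at -48.7 to 5.52, each with cells of both captures.

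Grouping the cells on these components gave 4 clusters, numbered from the highest to the lowest average share of the 11 listed erythroid genes found. Cluster 1 held 29 cells (20.7%; 14.3 to 28.4%), 14 from lane 7 and 15 from lane 8, and was led by Nfe2, Klf1, Alas2, Abcg1, Gata1 and Hbb-bh1. Klf1, Gata1, Epor, Nfe2 and Gfi1b were found in 86.2 to 100% of its cells. The embryonic globin genes Hba-x and Hbb-y were less frequent, Hba-x in 6 lane 7 and 2 lane 8 cells and Hbb-y in 4 and 6. Over the 11 listed erythroid genes its average share was 81.5%, and it is called primitive erythroid-like. Tek, of the endothelial list, was found in 13 and 15 of its cells by capture, and Runx1 in 14 and 15. Cluster 2 held 25 cells, 6 and 19 by capture, with the endothelial genes Esam and Ecscr among its leading genes, and it was not separate from cluster 4 once genes that differed between the captures were left out. Cluster 4 held 66 cells (47.1%; 38.7 to 55.8%), 23 and 43 by capture, led by Jag1, Meis1, Apela, Id2, Phlda2 and Msx1. Cluster 3 held 20 cells with the fewest genes found (median 7255.5), including the 5 cells of the population with over 15% mitochondrial counts, and its leading genes rested on single cells, so it stays unnamed. The genes that define a cluster are descriptions of it and were not tested.

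Along these clusters, Krt8, Foxf1, Car4 and Prtg were lowest where erythroid genes were highest. In cluster 1, mean Krt8 was 3.03 CPM and Foxf1 0.547 CPM, against 405 and 139.3 CPM in cluster 4. Car4 averaged 95.7 CPM in cluster 1 and 1245 CPM in cluster 4. The pooled means of Mdk differed little, at 257, 238, 280 and 286 CPM over clusters 1 to 4. By capture, Mdk averaged 193, 177, 259 and 278 CPM in lane 7 and 317, 257, 301 and 290 CPM in lane 8. Prtg was intermediate at 745 CPM in cluster 1 and 2005 CPM in cluster 4. The erythroid-like cells thus still held the transcripts of Mdk and Prtg but few of Krt8 and Foxf1. Runx1, the factor of definitive blood formation, averaged 224 CPM in cluster 1 and 14.1 CPM in cluster 4. Hbb-bh1 averaged 1950 CPM in cluster 1 and 360 CPM in cluster 2, and within cluster 1 it was 2775 CPM in lane 7 and 1180 CPM in lane 8. Cdh5 was found in 58.6% of cells in cluster 1, 76.0% in cluster 2 and 7.58% in cluster 4, and averaged 11.2, 20.3 and 0.278 CPM. Mesenchymal genes were found on average in 88.9% of cells in cluster 2 and 88.0% in cluster 4, and in 40.2% in cluster 1. Cells with both sex transcripts numbered 2, 6, 2 and 7 over clusters 1 to 4, and cluster 2 also had the highest median number of genes found (9592). The part that these cells play in the mixed profile of cluster 2 was not tested.

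**Figure D4:**
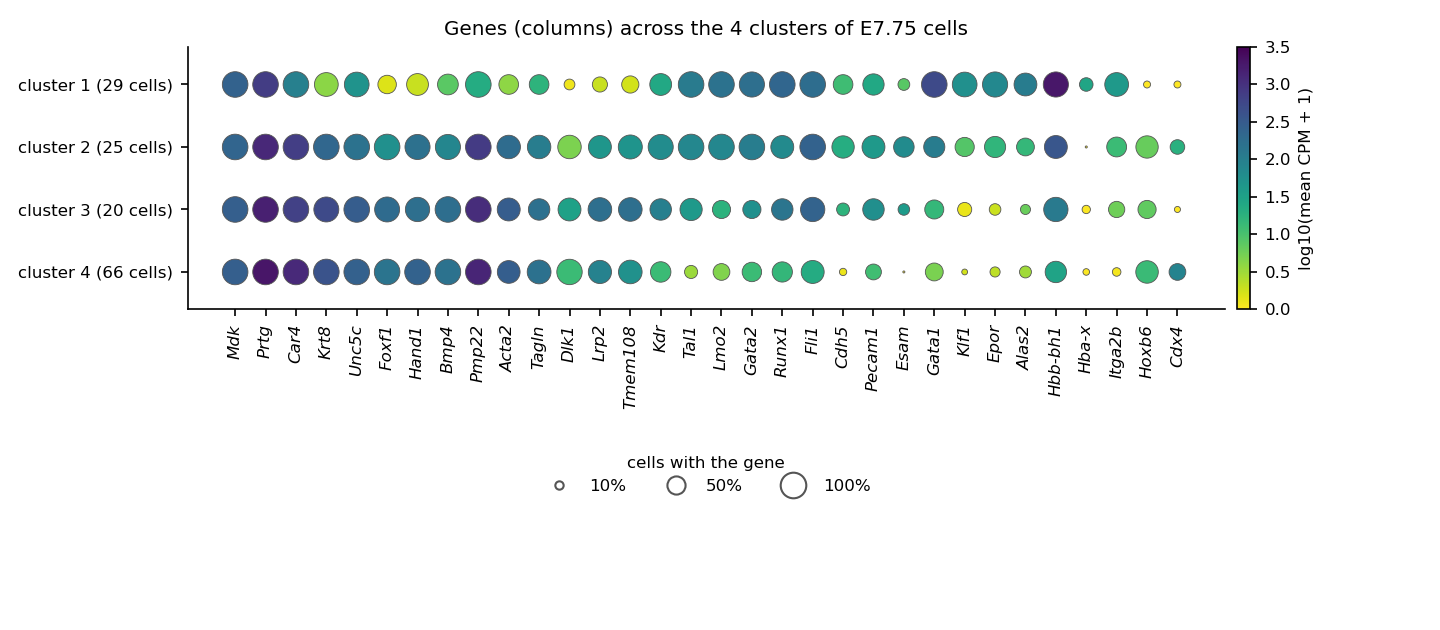
Dot plot of 32 genes in the 4 clusters of E7.75 cells, with colour for log10(mean CPM + 1) and dot area growing with the share of cells in which the gene was found, to be compared down a column and not between genes. Krt8 and Foxf1 are at 3.03 and 0.547 CPM in cluster 1 and Hbb-bh1 at 1950 CPM, while Mdk lies between 238 and 286 CPM in all clusters.

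Directly compared, few eligible genes differed at least 4-fold between the captures. The median log2 difference over all genes was 0, which the scaling of each cell favours, so that it is no measure of likeness. Of 3933 eligible genes 11 were called higher in lane 7 (0.280%), and of 3770 eligible genes 2 in lane 8 (0.0531%). Between the 2 captures of E7.25, the counts were 4 of 3835 (0.104%) and 0 of 3768 (0%). Of the 11 lane 7 genes, Eif2s3y (log2 difference 2.78), Uty (2.46) and Ddx3y (2.14) are Y-linked. The other 8 rested on 1 lane 7 cell of cluster 3 with 50.8% mitochondrial counts, which held 64.1 to 94.7% of their summed level. Ppp1r12c, for example, averaged 189 CPM in lane 7 with this cell, 10.3 CPM without it and 11.5 CPM in lane 8. The 2 lane 8 genes were Xist (0 against 208 CPM) and Meis1, a homeobox cofactor of Hox proteins, at 24.7 against 103.04 CPM and found in 24 and 54 cells. Within lane 8, Meis1 averaged 101.9 CPM in cells with Xist alone and 131.7 CPM in cells with Y-linked transcripts alone. Xist and the Y-linked genes follow the sex of the cells. For Meis1, capture and embryo pool cannot be told apart, and the part that sex plays was not tested. Cdx4 followed the same direction at 18.1 against 58.4 CPM.

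**Figure D5:**
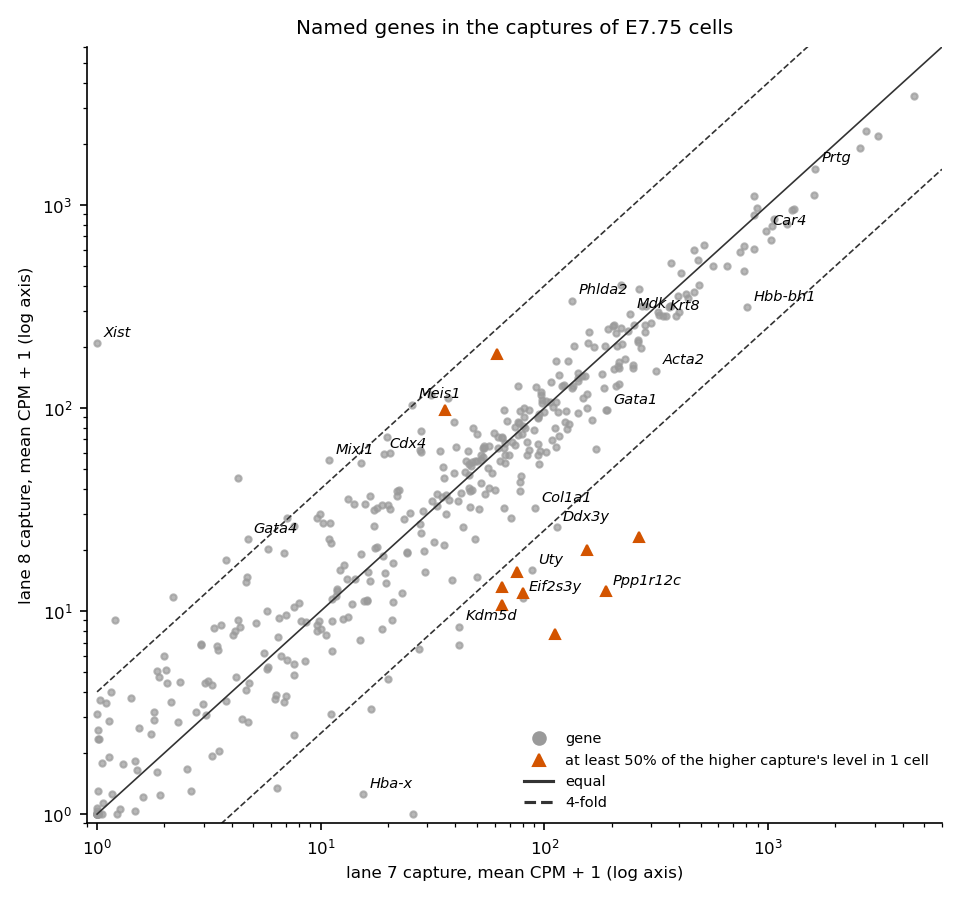
Mean CPM + 1 in the lane 7 capture against the lane 8 capture for 419 genes, on log axes, with a solid line of equality and dashed lines of 4-fold difference. Among the genes beyond the 4-fold lines are Xist, Meis1 and Mixl1 towards lane 8 and Eif2s3y, Uty and Ddx3y towards lane 7. Triangles mark 10 genes with at least 50% of the higher capture's level in 1 cell.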

How the data were processed

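Cells were grouped by their labels. The deposited counts were made by the authors from paired-end reads with Rsubread on the mouse genome (Ensembl annotation, GRCm38) and featureCounts, per gene and unnormalised. The authors filtered cells and genes with scater and deposited a second table, in which each cell's counts were scaled by scran size factors to CPM, used here as a signal whose sums ran from 699615 to 2511780 per E7.75 cell. The filtered tables held 15967 genes in 926 cells and the unfiltered counts 1073 cells.

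Named genes were those of fixed marker and pathway lists and the top ranks by population contrast, spread, capture, component loading and cluster, with exceptions stated. The members and lists were chosen with earlier results of these data known. Means, shares of cells with exact 95% binomial intervals, and 4-fold calls with a pseudocount of 1 CPM were computed. The call was also run on simulated data, and the outcome is not given here. Clusters (4) came from Ward linkage on 20 components of 2000 variable genes. As 1 population was 1 sample, no test was run, and no doublet caller was used. Computations used Python 3.11.15 with scipy 1.17.1, numpy 2.4.6 and pandas 2.3.3, and matplotlib 3.10.9 for plots.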

Additional observations from a re-analysis of the deposited data

How the results depend on the processing

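No paired analysis was possible because each population was 1 sample and no result came from a test. Of 96 alternatives of the list shares, 80 moved by less than the counting interval and 16 by more. Drawing each cell down to 500000 counts moved the mesenchymal share from 75.6 to 67.1% and the haemato-endothelial share from 65.4 to 55.8%. When found meant at least 10 counts, the share of the 6 markers moved from 97.4 to 89.8%. The extraembryonic mesoderm share moved from 73.5 to 58.4%, mesenchymal to 57.5%, haemato-endothelial to 46.5%, cardiac from 44.0 to 30.6% and endothelial from 31.9 to 22.2%. That setting moved the primitive erythroid share from 44.3 to 26.3%, the streak share from 18.8 to 11.7%, allantois from 23.6 to 13.2%, mesothelium from 25.5 to 15.9%, adult globin from 10.0 to 5.0% and visceral endoderm from 5.48 to 2.14%. For genes higher than every other population, the count was 1 with a pseudocount of 10 CPM, 0 from means of logs, 14 with no minimum, 1 without the cluster with fewest genes, and 2 to 9 with 1 capture left out; for lower genes it was 0 to 1. For genes higher than at E7.25 it was 3 with a pseudocount of 10 CPM, 1 from means of logs, 46 with no minimum and 6 to 27 with 1 capture left out, and for lower genes 35 with no minimum, 7 from means of logs and 10 to 26. From means of logs, none of the 12 genes called against E7.25 was eligible, because 2188 and 2240 genes passed the minimum there, and the 1 higher and 7 lower genes were others, among them Kdr. Without a minimum, 469 genes were higher and 928 lower than in E8.5 Endo, and 1264 were higher and 341 lower than in E8.5 EryP. Means of logs gave 176 higher than E8.5 EryP. Higher genes in lane 7 numbered 6 with a pseudocount of 10 CPM or with counts scaled by library total, 0 from means of logs, and 3 without the cluster with fewest genes or without each gene's highest cell, which were chosen after seeing the data, as was the cluster setting above. Higher genes in lane 8 numbered 1 with a pseudocount of 10 CPM and 4 from means of logs. Cluster 1 held 28 to 31 cells in every setting. Clusters 2 and 4 were best matched by 1 joint cluster of 91 cells with 3 clusters, and by 1 of 59 cells without genes that differed 2-fold between captures, so that cluster 2 was not separate in either setting; cluster 3 held 33 with 1000 genes and 43 without those genes, and cluster 4 held 40 with 5 clusters and 44 with 1000 genes. Of all alternatives of the marker ratios, 2 changed sign, Car4 and Foxf1 over E7.25 from means of logs, at -0.13 and -0.000987. The cause of these shifts was not tested. The number of cells limits statements of absence, since no count in 140 cells still allows a share of 2.14%. This bound does not cover transcripts that were present in a cell but missed.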

Other observations

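Transcripts of the imprinted Dlk1-Meg3 domain on chromosome 12 split the lane 7 cells, and the genes and the level were chosen after the values were seen. Meg3 (chr12:109541001-109571726, plus strand) and Rian (chr12:109603940-109661716, plus) are non-coding RNAs known to be expressed from the maternal chromosome, and Gm37899 (chr12:109668869-109677585, plus) lies next to Rian. The median level was 1.29 CPM in lane 7 and 98.4 CPM in lane 8 for Meg3, 5.77 and 409 CPM for Rian, and 0.92 and 234 CPM for Gm37899. The means differed less, at 156.99 and 236 CPM for Meg3.

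Outside the primitive erythroid-like cluster, 13 of 39 lane 7 cells had all 3 transcripts under 10 CPM (33.3%; exact 95% interval 19.1 to 50.2%) and 22 had all 3 at or above it, which left 4 with some. In lane 8, 0 of 72 such cells had all 3 under 10 CPM (exact 95% interval 0 to 4.99%), and 61 had all 3 at or above it. In clusters 2 and 4 alone, 8 of 29 lane 7 cells and 0 of 62 lane 8 cells had all 3 under 10 CPM. The lane 7 cells under 10 CPM had a median of 8817 genes found and the cells above it 8647. Dlk1, the paternally expressed protein-coding gene of the domain, averaged 21.5 CPM in the former and 10.8 CPM in the latter. In the primitive erythroid-like cluster, all 3 transcripts were under 10 CPM in 14 of 14 lane 7 cells and 12 of 15 lane 8 cells. The embryo of each cell is not named, and the cause was not tested.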
